A study of Mus musculus with 4 samples.

Results

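The nuclear lamina and the LINC complex (linker of nucleoskeleton and cytoskeleton) were examined at the RNA level in mouse Th17 cells, through 10 genes chosen by name from a table of 55450 genes. They comprise the lamin genes Lmna, Lmnb1 and Lmnb2, the lamina-binding membrane protein genes Lbr, Emd and Tmpo, the SUN genes Sun1 and Sun2, and the nesprin genes Syne1 and Syne2. All 10 were found by symbol, and all had a mean normalized count of at least 10. The set was put together with results of this same comparison known, Lmna being among the genes of smallest p, so its fold changes are given as a description and support nothing further.

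The samples were 4 cultures of CD4 T cells labelled as carrying a Cas9 transgene, 2 given the empty PSIN retroviral vector and 2 given the vector with the guide sgAdarb1. ADAR2, the Adarb1 product, converts adenosine to inosine within double-stranded RNA. Each of 2 donor mice, 8 to 12 weeks old per the labels, gave 1 culture of each kind. The design text calls these mice wild type while the genotype label names the transgene, and how the descriptions go together is not explained there. Naive cells had been activated for 24 h with anti-CD3 (0.25 µg/mL) and anti-CD28 (1 µg/mL), transduced, and held for 72 h in TGF-β (0.3 ng/mL) and IL-6 (20 ng/mL). The control vector carried no guide, so cutting by Cas9 as such and loss of ADAR2 cannot be told apart. The knockdown is taken from the labels, since Adarb1 mRNA may persist after a cut and its level is no check.

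The deposited table gives, per gene, 1 mean over all libraries and 1 fold change with its standard error (SE). Values of single cultures were not used here, because the 4 library columns carry names that match no sample label. Following the design text, fold changes are read with sgAdarb1 as numerator and empty vector as denominator. The table does not name its numerator, and in 2 samples the title and the treatment tag name opposite arms, so the direction and the grouping rest on the authors. In these bulk cultures, more cells of a type and more RNA per cell cannot be told apart. The CD4 T and Th17 marker genes were present, and the authors' deposited table gives means of 15286 normalized counts for Cd4, 5150 for Cd3e and 1756 for Il17a.

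The lamina is a mesh of intermediate filament proteins that lines the inner nuclear membrane. Lamins A and C, both made from Lmna, are abundant in stiff tissues and scarce in resting lymphocytes, and their level rises when T cells are activated, whereas B-type lamins are made in nearly all cells. LBR, emerin and the membrane forms of LAP2 (from Tmpo) sit in or near the inner membrane and tether lamins and heterochromatin. SUN proteins span that membrane and hold the KASH tails of nesprins, which reach through the outer membrane to actin, microtubule motors and, through plectin, intermediate filaments.

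The coding ends of the transcripts show which products a count per gene adds together, and what these proteins have in common. The lines below give the last bases of the reading frame with its stop codon, 30 bases each, taken from GENCODE M21 transcripts (mm10). Capitals mark the last 4 codons before the stop.
Lmna, lamin A transcript: cagagctcccagaacTGCAGCATCATGtaa
Lmna, lamin C transcript: caccaccgtgtgagtGGCAGCCGCCGCtga
Lmnb2, lamin B2 transcript: actacctcaaggggcTGCCGACTGATGtga
Syne1, long nesprin 1 transcript: agatataccaacggtCCTCCTCCACTCtga
Syne2, long nesprin 2 transcript: cggtacaccaacgggCCACCTCCCACCtag
In the lamin A and lamin B2 transcripts the capitals begin with TGC, a cysteine codon, and encode the CaaX box at which farnesyl is attached. The capitals of the lamin C transcript hold no such codon at that place, as lamin C is not farnesylated. This end also lies elsewhere in the gene, at chr3:88483297-88483326 on the minus strand, while the lamin A end spans an exon junction. The reading frames hold 665 codons for lamin A and 574 for lamin C. Both nesprin ends carry 3 CCN (proline) codons, the end of the KASH tail that enters the SUN domain, at chr10:5022007-5022036 (minus strand) for Syne1 and chr12:76110015-76110044 (plus strand) for Syne2. The table has 1 row per gene, so lamin A and lamin C mRNA, like the long and short nesprin forms, cannot be told apart in it. The same holds for Tmpo, whose transcripts with reading frames of 693 and 452 codons end at different places. The Tmpo row is thus not that of a membrane form alone.

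The genes were chosen by name with results of this comparison known, and whether their levels entered the choice is not recorded. Per kilobase of annotated exons, Lmnb1 stood highest among the 10, at 1878 mean normalized counts per kilobase, a level above 97.6% of genes with a mean of at least 10. Next came Lbr (597), Lmna (544) and Tmpo (393), then Sun2 (304) and Emd (285), with Lmnb2 (137) and Sun1 (126) below them. The nesprin genes were lowest, Syne1 at 46.4 and Syne2 at 16.5 mean normalized counts per kilobase. Within the lamin genes, Lmnb1 made up 73.4% of the summed level per kilobase, Lmna 21.3% and Lmnb2 5.35%. The cultures thus held far more B1 than B2 message, a 13.7-fold ratio per kilobase, and 3.45 times as much Lmnb1 as Lmna. Of the SUN genes, Sun2 was 2.41 times as high as Sun1, and Syne1 was 2.80 times as high as Syne2.

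Part of this order depends on the length used. Per kilobase of the longest coding transcript, Tmpo moved from the fourth place to the second, since its exons cover 10998 bases and its longest coding transcript 3772. Lbr moved to the fourth place. By this length Emd (450) stood above Sun2 (433), and Sun1 (232) above Lmnb2 (166). The ratio of Lmnb1 to Lmna fell to 1.94 and the share of Lmna rose to 32.2%, with Lmnb1 at 62.5% and Lmnb2 at 5.31%. The ratio of Sun2 to Sun1 became 1.87 and that of Syne1 to Syne2 became 3.30. By either length, Lmnb1 was first and Syne1 and Syne2 were last. With long nesprin annotations (exons of 40491 bases in Syne1 and 26726 in Syne2) and short forms of both genes, a level per kilobase understates any short form. No spread over cultures was available for these levels, so whether neighbours in the order differ was not tested.

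**Figure D1:**
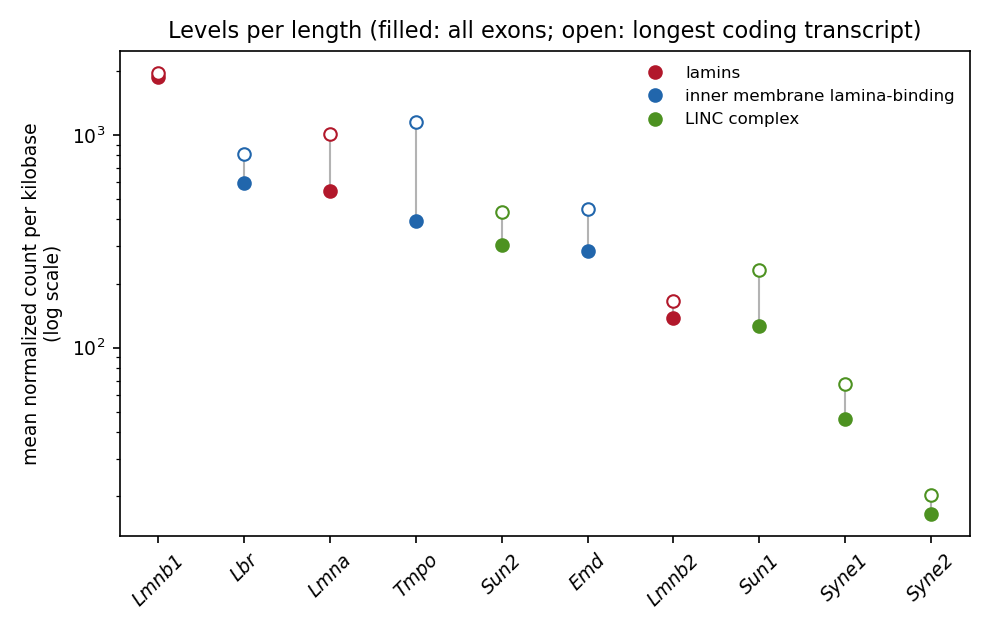
Mean normalized count per kilobase (log axis) of the 10 genes over all 4 libraries, per length of all annotated exons (filled) and of the longest coding transcript (open), coloured by role; the gray line joins both values of a gene. Lmnb1 is highest at 1878 per kilobase of exons and Syne2 lowest at 16.5, and Tmpo has the widest gap between its points.

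By the deposited test, the comparison between guide and vector called none of these genes. By the adjusted p of the authors' deposited table (DESeq2), 0 of the 10 members fell under 0.05, as did 0% of the 29383 genes with a fold change. At an unadjusted p below 0.05 there was 1 member, Lmna, and 61 genes in the whole table, which is 0.208%. Since the set was chosen with this contrast in view, nothing is read from that count. Of the 10 estimates 5 were positive and 5 negative, with a median of -0.02 on the log2 scale, against 0.0017 over all 14547 genes whose mean was at least 10, of which 50.5% were positive. The 95% interval lay inside -1 to 1 for 10 of the 10 genes, so each interval excludes a 2-fold difference in either direction. It lay inside -0.5 to 0.5 for 8 of them, the exceptions being Lmna and Syne2.

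**Figure D2:**
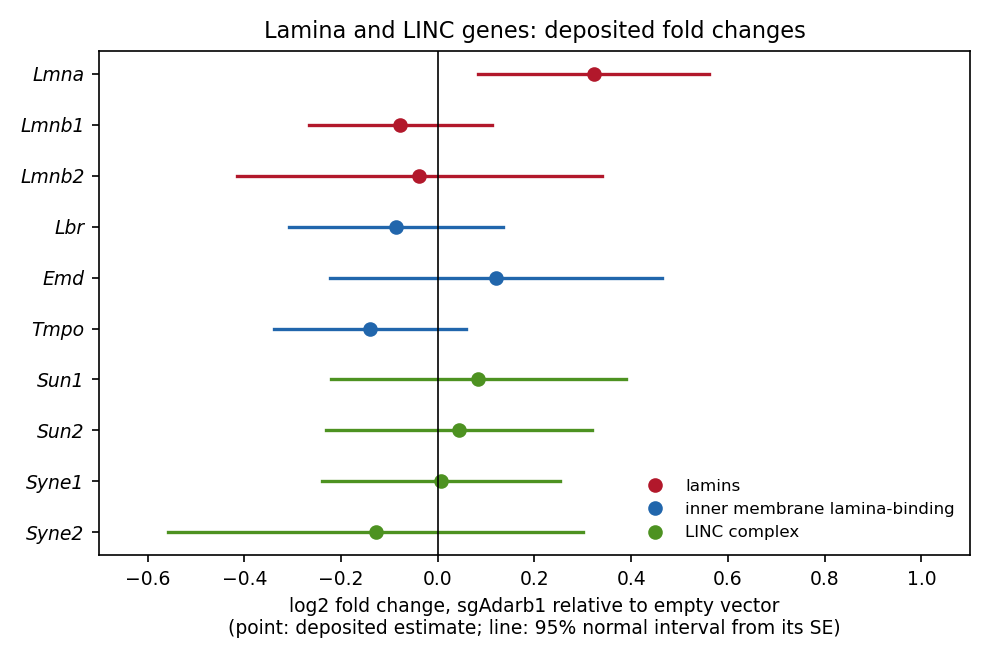
Deposited log2 fold change (sgAdarb1 relative to empty vector) of each gene, with the 95% normal interval from its standard error, coloured by role. The interval of Lmna runs from 0.08 to 0.56, and those of the 9 other genes include 0.

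Among the lamins, the A-type gene had the largest estimate of the set and both B-type genes lay slightly on the other side of 0. Lmna (ENSMUSG00000028063.15, chromosome 3, 88480147 to 88509956, minus strand, mm10) encodes the A-type lamins that set nuclear stiffness. For this gene the authors' deposited table gives a mean of 3178 normalized counts and a log2 fold change of 0.32 ± 0.12 (SE), which is 1.25-fold with a 95% interval from 1.06 to 1.47. Ranked by unadjusted p, which was 0.00796, Lmna stood at place 9 of 29383 genes in the authors' deposited table, and its adjusted p from DESeq2 was 1.00. The adjusted p of Lmna depended on the scale of the Wald statistic. With genes of a mean of at least 10 divided by their robust spread of 0.54, it was 0.00154. With abundant genes (means from 1000) scaled among themselves, by a spread of 0.70, it was 0.102. Since Lmna was known by its p beforehand, neither value is a test of it. At this SE, only an estimate of 0.58 or more would have let Lmna pass as the gene of smallest p. Its SE was 1.14 times the median of the 200 genes nearest to it in mean, the highest such ratio among the 10 members. No other annotated gene overlaps Lmna.

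Lmnb1, the predominant B-type lamin gene here (ENSMUSG00000024590.8, chromosome 18, 56707813 to 56753424, plus strand), averaged 5564 normalized counts in the authors' deposited table, and its log2 fold change was -0.08 ± 0.10. Its interval, from 0.83-fold to 1.08-fold, was the narrowest of the 10. Lmnb2, which encodes lamin B2 (ENSMUSG00000062075.13, chromosome 10, 80901203 to 80918245, minus strand), averaged 587 in the authors' deposited table and lay at -0.04 ± 0.19. No other annotated gene overlaps either B-type gene. The difference between the log2 fold changes of Lmna and Lmnb1 was 0.40 ± 0.16, with an interval from 0.10 to 0.70, and that between Lmna and Lmnb2 was 0.36 ± 0.23, from -0.09 to 0.81. These SEs take the genes as independent, although both were read from the same libraries, and as Lmna was singled out by its own value the differences carry no test. Lmnb1 and Lmnb2 differed by -0.04 ± 0.22 on the log2 scale.

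The proteins that bind the lamina at the inner membrane were split. Lbr encodes the lamin B receptor, a tether of peripheral heterochromatin that is also a sterol reductase (ENSMUSG00000004880.11, chromosome 1, 181815335 to 181843046, minus strand). It averaged 2841 in the authors' deposited table and lay at -0.09 ± 0.11. Tmpo, the LAP2 gene (ENSMUSG00000019961.17, chromosome 10, 91147571 to 91181315, minus strand), averaged 4325 and had the lowest estimate of the set in the authors' deposited table, -0.14 ± 0.10, with an interval from 0.79-fold to 1.04-fold. Emd, which encodes the LEM-domain protein emerin (ENSMUSG00000001964.14, chromosome X, 74254687 to 74261548, plus strand), averaged 718 in the authors' deposited table and lay at 0.12 ± 0.18. All 3 intervals include 0.

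Other transcripts overlap these genes to a small extent. The pseudogene Gm14686 shares 343 exonic bases with Emd on the same strand, 13.6% of the annotated exons of Emd, and is listed at 0 in the authors' deposited table. Lbr shares 440 exonic bases with Dnah14 on the opposite strand, a gene whose average in the authors' deposited table was only 12.4. Tmpo shares 244 exonic bases with the opposite-strand transcript Gm26765, which averaged 15.4 in the authors' deposited table. Sun1 and Sun2 share 302 and 147 exonic bases with opposite-strand transcripts, which averaged 4.44 and 12.85. As for strand in the counting, the setting was not given in the sources used here. Reads over bases shared with an opposite-strand transcript could thus have been given to either gene or to none. For Emd and Gm14686 strand does not separate the genes, and with Gm14686 at 0, shared reads went to Emd or to none.

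Of the 4 SUN and nesprin genes, which form the LINC complex, 3 were positive and 1 negative, and the intervals of all 4 include 0. Sun1 (ENSMUSG00000036817.14, chromosome 5, 139200637 to 139249840, plus strand) averaged 959 in the authors' deposited table and lay at 0.08 ± 0.16. Sun2, the more abundant SUN gene (ENSMUSG00000042524.14, chromosome 15, 79724070 to 79742536, minus strand), averaged 1647 in the authors' deposited table and lay at 0.04 ± 0.14. After correction for GC content and length, Sun2 turned to -0.0083. Syne1, whose product nesprin 1 binds actin (ENSMUSG00000096054.3, chromosome 10, 5020917 to 5551482, minus strand), averaged 1877 and had the estimate nearest to 0 in the authors' deposited table, 0.0063 ± 0.13. Its interval runs from 0.85-fold to 1.19-fold. Syne2, the nesprin 2 gene (ENSMUSG00000063450.14, chromosome 12, 75818134 to 76110926, plus strand), was the least precisely measured member in the authors' deposited table, averaging 442 and lying at -0.13 ± 0.22. For Syne2 an estimate of 1.05 would have been needed to pass as the gene of smallest p. At that SE, an estimate below about 2-fold would thus not have passed by itself. The paralogs differed by 0.04 ± 0.21 (Sun1 against Sun2) and 0.13 ± 0.25 (Syne1 against Syne2) on the log2 scale, with both intervals spanning 0.

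**Figure D3:**
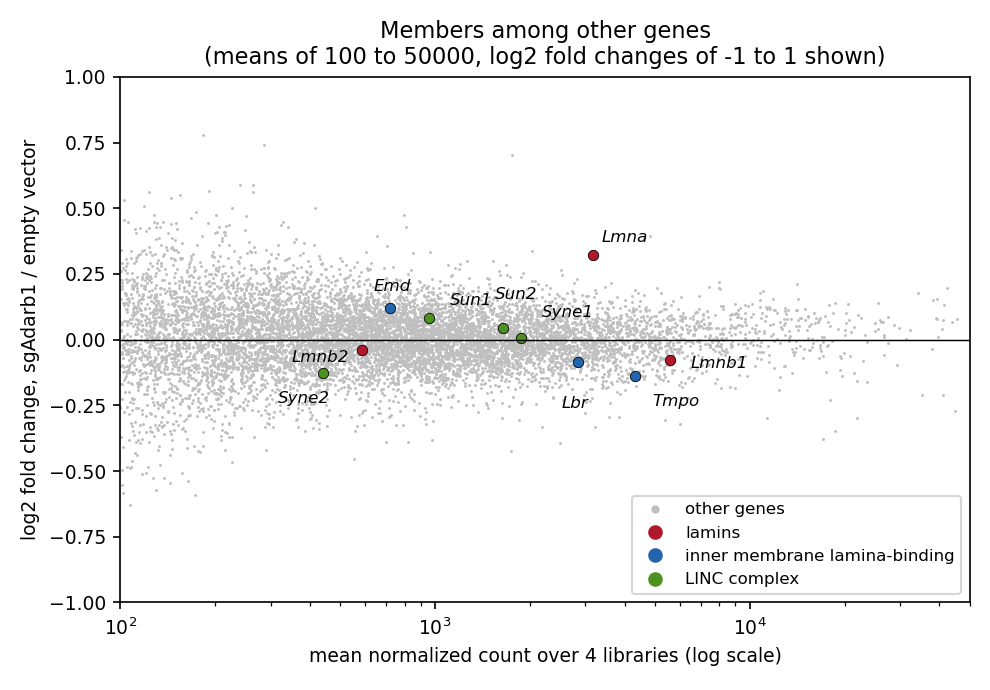
Log2 fold change (sgAdarb1 relative to empty vector) against mean normalized count (log axis) for the members, coloured by role, and for other genes in gray. Lmna, at a mean of 3178 and 0.32, lies above most genes of its level, and the other 9 lie between -0.14 and 0.12, within the gray cloud.

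Set among abundant genes, Lmna stood near the upper edge. Among the 3664 genes whose mean was at least 1000, 5 had a log2 fold change as high as that of Lmna or higher, Lmna included, in the authors' deposited table. The other 9 members lay between -0.14 and 0.12, and for each of them between 19 and 193 of the 200 genes nearest in mean had a larger absolute log2 fold change. For Lmna that number was 1. These positions describe the value by which Lmna came to attention and are no test of it. The deposited Wald statistics were narrow, with a standard deviation of 0.51 over all 29383 genes and 0.73 over those with a mean of at least 1000, where a calibrated test without differences would give 1.

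GC content is given beside the signs of the members, and its part in them was not tested. Lmna, Sun2 and Lmnb2 have the most GC-rich transcripts of the set, at 59.3%, 58.0% and 57.6%, and of these Lmna and Sun2 were positive and Lmnb2 negative. Lbr and Tmpo, both negative, are the most GC-poor, at 44.2% and 47.3%. Syne2, also negative, follows at 49.7%, then Syne1 and Sun1, both positive, at 50.6% and 51.4%. Emd and Lmnb1, at 53.4% and 53.3%, had opposite signs. A smooth dependence of fold change on both GC content and length, fitted over all 14547 genes whose mean was at least 10, came to 0.06 for Lmna, 0.05 for Lmnb2 and -0.03 for Lbr. With it removed, Lmna stood at 0.26, Lmnb1 at -0.10, Lmnb2 at -0.09, Lbr at -0.05, Emd at 0.08 and Tmpo at -0.12. The difference between Lmna and Lmnb1 became 0.36. Lmna lay above both B-type genes with and without the trend. The fitted values were small beside the differences between Lmna and these genes, and Lmna was known by its value beforehand, so this order is no test.

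**Figure D4:**
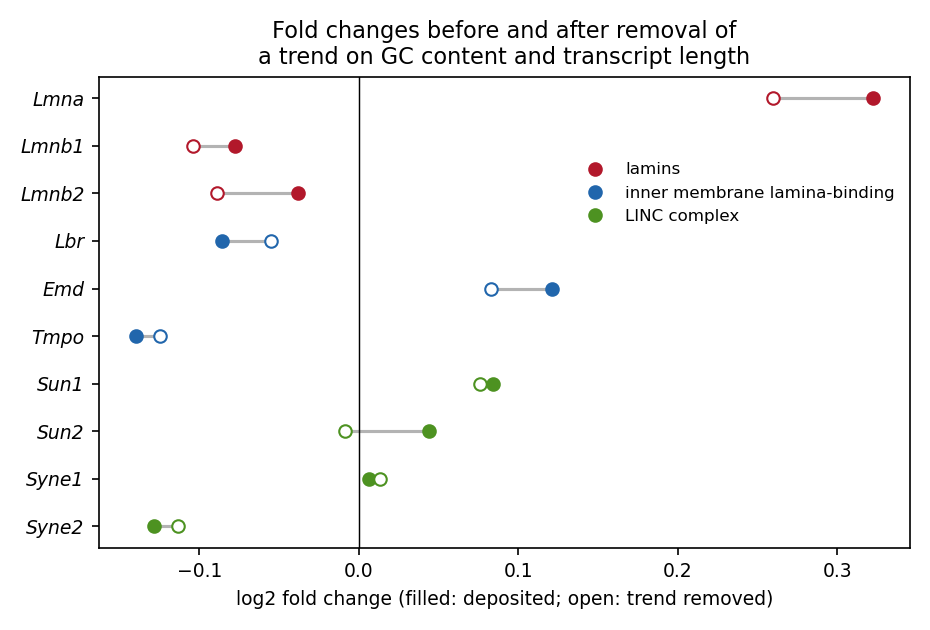
Log2 fold change of each member as deposited (filled) and after removal of a trend on GC content and transcript length (open), coloured by role. Lmna moves from 0.32 to 0.26 and stays apart from the others, and Sun2 crosses 0.

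Markers of other cells and of cycling cells are given beside these values. As background, lamin A is abundant in stromal cells, and LAP2 and lamin B1 are prominent in dividing ones. Of 11 myeloid and dendritic markers 8 had a mean of at least 10, and 7 of these were positive (median 0.47). The 11 markers had a summed level of 255 mean normalized counts. The most abundant of them, Cd68, Xcr1 and Fcer1g, averaged 59.8, 54.1 and 46.6 in the authors' deposited table. Their log2 fold changes there were 0.43 ± 0.56, 0.03 ± 0.60 and 0.26 ± 0.70, each with an SE larger than the estimate. The macrophage genes Itgam and Adgre1 averaged 2.14 and 7.51 there. Stromal and endothelial markers had a summed level of 219 over 8 genes, most of it Pecam1 (192 in the authors' deposited table), while Col3a1 was listed at 0 and Col1a1 averaged 7.43 in the authors' deposited table. The level of these markers per culture was not used here, and their part in the Lmna value was not tested. Of 6 proliferation markers, 6 were on the negative side, the side of Lmnb1, Tmpo and Lbr, with a median of -0.12. Among them Top2a was at -0.19 ± 0.09 and Mki67 at -0.38 ± 0.29 in the authors' deposited table. Their part in the values of Lmnb1, Tmpo and Lbr was not tested.

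The other marker lists held larger fold changes than any member. Of 12 CD4 T and Th17 markers, 11 were positive, the side of Lmna, and 1 negative, with a median of 0.11. The cytokine genes Il17a and Il17f were at 0.70 ± 0.15 and 1.11 ± 0.53 in the authors' deposited table, while Cd4 was at 0.09 ± 0.08 and Cd3e at 0.06 ± 0.10. Of 8 mast cell and basophil markers, whose summed level was 109, only Cpa3 and Kit had a mean of at least 10. Kit, the most abundant of the list, averaged 66.8 and lay at 0.03 ± 0.54 in the authors' deposited table. There Cpa3 averaged 28.7 and lay at -5.66 ± 1.26, and Cma1 averaged 8.20 and lay at -4.70 ± 1.98. Markers of B cells were 2 positive and 3 negative, and those of CD8 T and NK cells 2 positive and 2 negative among those with that mean. For none of these lists was a part in the values of the members tested.

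The wider nuclear envelope was followed through 10 lists of functional partners, 91 genes in all. Of the 80 with a mean of at least 10, 40 were positive and 40 negative, the median was -0.00069, and 0 passed the adjusted threshold in the authors' deposited table (DESeq2). At an unadjusted p below 0.05 there was 1, Plec, against 0.412% of all genes with that mean. None of the genes named below passed. In each list fold changes are given for at most 3 genes, those of smallest p with a mean of at least 50.

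Partners of the lamins and of the inner membrane proteins lay near 0. LEM-domain and BAF genes were 4 positive and 1 negative (median 0.01), with Banf1, which encodes the chromatin-bridging protein BAF, at 0.07 ± 0.16, Ankle2 at -0.05 ± 0.13 and Lemd2 at 0.05 ± 0.23 in the authors' deposited table. Enzymes of prelamin processing, which act on the CaaX end shown above, were 2 positive and 3 negative (median -0.05). Here Zmpste24, the protease that matures lamin A, was at -0.05 ± 0.14, the farnesyltransferase subunit gene Fntb at -0.14 ± 0.30 and the CaaX protease gene Rce1 at 0.10 ± 0.26 in the authors' deposited table. Torsin ATPases and their cofactors were 4 positive and 3 negative (median 0.02), with the cofactor genes Tor1aip2 at 0.14 ± 0.12 and Tor1aip1 at -0.05 ± 0.14 and Tor2a at 0.17 ± 0.21 in the authors' deposited table. Other inner nuclear membrane protein genes were 4 positive and 4 negative (median 0.05), led by Tmem120a (0.28 ± 0.20), Tmem214 (0.12 ± 0.18) and Tmem43 (0.10 ± 0.17) in the authors' deposited table.

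Chromatin partners of LBR, LAP2 and emerin were 4 positive and 6 negative, with a median of -0.06. The heterochromatin protein genes Cbx3 and Cbx1 were at -0.13 ± 0.13 and -0.10 ± 0.15, and the corepressor gene Ncor1 at -0.15 ± 0.09 in the authors' deposited table. Genes of mitotic lamina disassembly and envelope reassembly were 8 positive and 11 negative (median -0.01). Vrk1, a kinase that phosphorylates BAF, was at -0.17 ± 0.15, Spast, which severs microtubules as the envelope reseals, at 0.18 ± 0.16, and the import receptor gene Kpnb1 at -0.08 ± 0.08 in the authors' deposited table. The 4 sterol synthesis genes related to the LBR reductase step were all positive (median 0.13), with Dhcr7 at 0.31 ± 0.24 and Msmo1, an oxidase of the same pathway, at 0.19 ± 0.13 in the authors' deposited table, both with an interval that spans 0.

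On the cytoplasmic side, Plec had the smallest p of the partner genes. It encodes plectin, which links nesprin 3 to intermediate filaments, and the authors' deposited table puts it at 0.18 ± 0.08 with an average of 34272 normalized counts (DESeq2 unadjusted p = 0.019, adjusted p = 1.00). The list of cytoskeletal partners was 6 positive and 5 negative (median 0.01), with the kinesin gene Kif5b at -0.13 ± 0.09 and the α-actinin gene Actn1 at 0.15 ± 0.13 in the authors' deposited table. Among the other SUN and KASH genes, only Syne3, the nesprin 3 gene (mean 1517, -0.06 ± 0.14), and Lrmp (mean 3051, -0.02 ± 0.11) averaged 10 or more in the authors' deposited table. Sun3 was listed at 0. The SRF and MRTF pathway senses the actin pool that emerin and lamin A influence. Its genes, the regulators Srf, Mrtfa and Mrtfb included, were 4 positive and 5 negative (median -0.0017). The immediate early gene Egr1 was at 0.23 ± 0.13, Cnn2 at 0.13 ± 0.11 and the regulator gene Mrtfb at -0.11 ± 0.20 in the authors' deposited table.

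**Figure D5:**
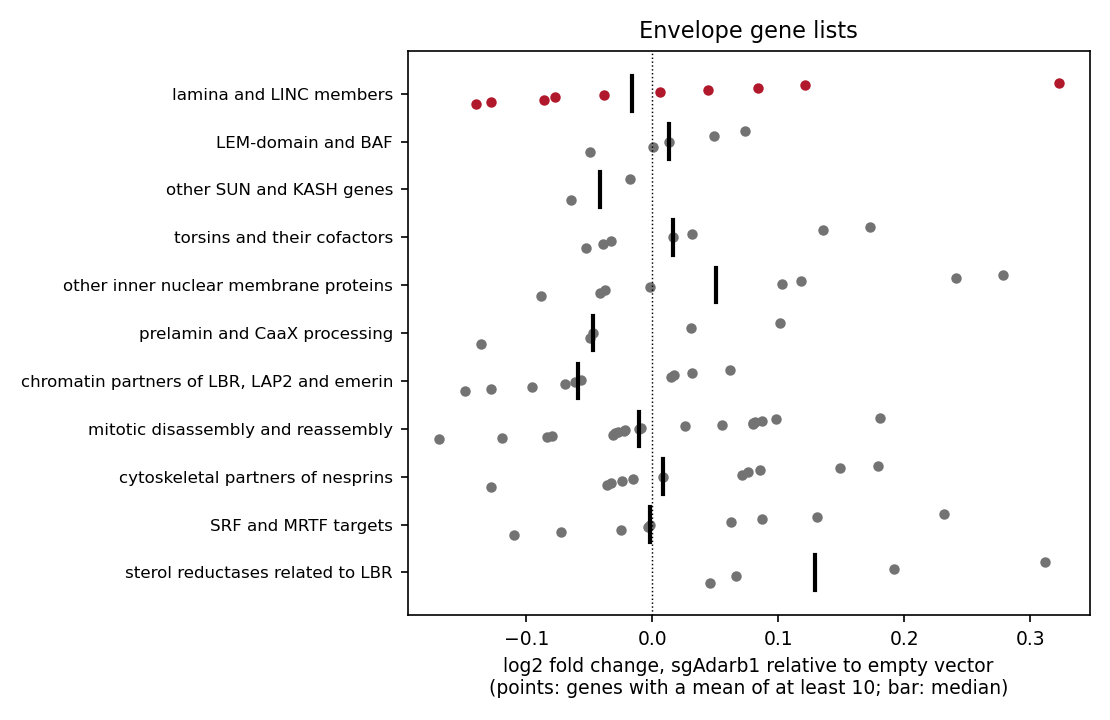
Log2 fold change (sgAdarb1 relative to empty vector) of each gene with a mean of at least 10 in the set of 10 members (red) and in the 10 lists of envelope partners (gray), with the median of each list as a black bar. Medians run from -0.06 for chromatin partners to 0.13 for the sterol genes, and that of the members is -0.02.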

How the data were processed

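RNA was measured in 4 cultures, 2 per group, named from their titles. Per the submitters' processing notes the authors used mm10, DESeq2 1.18.1, featureCounts and STAR 2.6.1a. For the model formula, a donor term, the annotation and the strand setting, the details were not given in the sources used here. Per the file headers, the authors deposited for each gene a mean signal (counts divided by size factors, averaged over libraries, here the mean normalized count), a log2 fold change with its SE, a Wald score, a p-value and its adjustment. The score equalled fold change over SE, and the adjusted p a Benjamini-Hochberg adjustment over 29383 genes. The other 26067 genes had a mean of 0. A further 4 columns of library values match no sample label and were not used, so depths are not given and the SE sets the precision.

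All 55450 identifiers matched GENCODE M21. Python 3.11.15, numpy 2.4.6, pandas 2.3.3, scipy 1.17.1 and matplotlib 3.10.9 gave 95% normal intervals, levels per kilobase, list counts and the alternatives, with no set test. The trend was a weighted polynomial of degree 3 in log2 length and GC content of the longest coding transcript. The adjustment and trend were tested on simulated data. For the scaling only the estimate of a single spread was tested, and the scaled calls were not. All 10 members are described. Fold changes are given for up to 3 genes per list of envelope partners, of smallest p with a mean of at least 50. A gene that this rule would name is not reported here. The members and lists were chosen with earlier results of these data known. Alternatives concerned threshold, adjustment, filter, centring, trend and scaling.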

Additional observations from a re-analysis of the deposited data

How the results depend on the processing

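Against 0 members past the threshold as deposited, 0 passed at an adjusted p of 0.1 or 0.01, when only genes with means from 10 or from 50 were adjusted together, with the median fold change subtracted (0.0051 on the log2 scale), or after correction for the GC and length trend. There was 1, Lmna, when Wald statistics of genes with means from 10 were divided by their robust spread of 0.54 (adjusted p = 0.00154, 34 genes called in all). Lmna also passed when they were divided by their standard deviation (adjusted p = 0.00929, 19 genes). The same held with their spread after removal of the trend (adjusted p = 0.0245, 23 genes). These scalings assume that most genes do not differ, and the spread rose with the mean. With the 3664 genes of a mean of at least 1000 scaled by their own spread of 0.70, 0 members passed (Lmna adjusted p = 0.102, 2 genes called). The last 3 scalings were chosen after the data were seen. Sun2 turned to -0.0083 with the trend removed, whether scaled or not, and no other member changed sign. The median of the members stayed between -0.04 and -0.02, and was -0.04 without Lmna. With the trend removed the medians of LEM-domain and BAF genes (-0.02), torsins (-0.03) and cytoskeletal partners (-0.04) turned negative, and that of inner membrane proteins turned to -0.0021 at a mean of at least 50. No paired analysis was possible because no library column could be tied to a sample. Likewise, edgeR and DESeq2 refits and omission of a culture were not run.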
